A study of Mus musculus with 78 samples.

Results

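RNA polymerase II (RNAPII) sites that had a strong ChIP–seq peak in control mouse embryonic stem cells (mESCs) and no peak after 24 h of TRIM28 degradation were examined. A site was a peak among the 10000 with the highest fold enrichment in DMSO replicate 1 that overlapped, by at least 1 bp, a peak of the top 10000 in DMSO replicate 2. It counted as lost where no deposited peak of either dTAG-13 replicate overlapped it, and as kept otherwise. The members were thus chosen by fold enrichment in the DMSO libraries and by the absence of a dTAG-13 peak. Of 8730 shared DMSO sites, 3026 were lost (34.7%) and 5704 were kept, out of 19853 peaks deposited for DMSO replicate 1.

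The cells were V6.5 mESCs whose Trim28 gene carried an N-terminal FKBP degron tag with an mRuby2-P2A marker, established from a single picked colony. All control and treated groups used here carried the tag. In cells with this tag, 500 nM dTAG-13 directs the degradation of TRIM28, a corepressor that recruits H3K9me3 heterochromatin to endogenous retroviruses, and control cells received DMSO. RNAPII and the Mediator subunit MED23 were mapped in 2 DMSO and 2 dTAG-13 libraries (24 h), and H3K27Ac and H3K9me3 in 3 and 3. Nascent RNA was measured by TT-SLAM-seq (4-thiouridine labelling) in 3 libraries each of DMSO and of 2 h, 6 h and 24 h of dTAG-13, and polyadenylated RNA by RNA-seq in the same groups and at 96 h. A separate line derived from the degron cells, called the shERV line here, carried a doxycycline (Dox) inducible short hairpin against endogenous retroviral repeats. Its total RNA was sequenced in 3 libraries each of DMSO (labelled 24 h), dTAG-13 for 24 h, and Dox with dTAG-13. The labels give the same Dox pre-treatment text for all 3 of these groups, and only the treatment label tells them apart. Samples of a group were labelled as replicates without a statement that they came from separate clones, so p-values measure the spread between these libraries.

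RNAPII transcribes protein-coding genes, and in mESCs much of it sits just downstream of gene starts, where it pauses before elongation. It is also found at enhancers, which it transcribes at a lower level, and at super-enhancers, which are clusters of enhancers with high Mediator density near genes of stem cell identity. A ChIP–seq peak is a local excess of fragments over background, so a site with less RNAPII can drop below the calling threshold without RNAPII being absent.

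The libraries differed in the number of peaks. The DMSO libraries held 19853 and 19194 RNAPII peaks and the dTAG-13 libraries 8182 and 7689. The highest fold enrichment reached 254.6 and 247.8 in the DMSO libraries, against 203.1 and 198.3 in the dTAG-13 libraries. Fly spike-in chromatin was added to the RNAPII samples, but the deposited peaks carry no spike-in scaling, so less RNAPII and a weaker ChIP cannot be told apart from the peaks. Trim28 RNA, which does not test degradation of the protein, was between 622 and 626 TPM (transcript abundance scaled for length and depth) in DMSO and 365 and 382 TPM at 24 h. All 8 embryonic stem cell markers were expressed, with a summed level of 4907 to 5329 TPM in DMSO and 3314 to 3664 TPM at 24 h. Summed markers of feeder fibroblasts (12 genes) lay between 41.7 and 43.2 TPM in DMSO, with 4 of 12 under 1 TPM, and between 55.5 and 60.5 TPM at 24 h, with 3 of 12 under 1 TPM, and their part in the results was not tested. Neural markers (5 genes) summed to 60.7 to 62.6 TPM in DMSO and 45.4 to 54.6 TPM at 24 h, and endoderm markers (5 genes) to 13.9 to 18.1 and 25.4 to 26.8 TPM.

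The strongest lost sites are shown by sequence because their RNAPII peaks were far above the limit for entry. The first 4 are the lost sites with the highest fold enrichment in DMSO replicate 1, and the fifth is the highest lost site inside a super-enhancer. The last 2, at Sox2 and Mir290a, were chosen after their values were seen because their genes lost nascent RNA. Each sequence is taken from the 200-base window around the summit (mm10, plus strand, 5′ to 3′), without bases that lie in an annotated exon, and capitals mark a GC box, CCAAT box, TATA box or nuclear receptor motif on either strand.
Clic4 site (chr4:135300724-135300923): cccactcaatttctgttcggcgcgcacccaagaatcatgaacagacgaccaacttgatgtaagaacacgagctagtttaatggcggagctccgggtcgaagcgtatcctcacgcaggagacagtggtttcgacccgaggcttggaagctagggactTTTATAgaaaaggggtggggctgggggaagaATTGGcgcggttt
Gar1 site (chr3:129830976-129831117): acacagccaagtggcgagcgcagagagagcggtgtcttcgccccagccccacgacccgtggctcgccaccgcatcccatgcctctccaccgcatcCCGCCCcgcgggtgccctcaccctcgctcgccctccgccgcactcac
Mia3 site (chr1:183369554-183369593): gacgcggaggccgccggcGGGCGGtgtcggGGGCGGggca
Spats2 site (chr15:99126168-99126367): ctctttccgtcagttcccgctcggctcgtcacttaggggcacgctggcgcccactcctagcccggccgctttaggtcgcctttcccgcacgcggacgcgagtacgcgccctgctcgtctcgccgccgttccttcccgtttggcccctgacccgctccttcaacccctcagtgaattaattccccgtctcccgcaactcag
Ssr2 site (chr3:88573190-88573389): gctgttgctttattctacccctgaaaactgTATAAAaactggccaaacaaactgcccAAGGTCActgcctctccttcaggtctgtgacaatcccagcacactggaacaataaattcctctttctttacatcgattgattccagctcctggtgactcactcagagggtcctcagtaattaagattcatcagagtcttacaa
Sox2 site (chr3:34653843-34654042): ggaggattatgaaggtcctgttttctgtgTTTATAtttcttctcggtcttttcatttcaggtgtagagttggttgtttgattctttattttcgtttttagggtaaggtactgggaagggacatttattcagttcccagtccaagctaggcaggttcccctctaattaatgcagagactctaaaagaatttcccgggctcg
Mir290a site (chr7:3212019-3212218): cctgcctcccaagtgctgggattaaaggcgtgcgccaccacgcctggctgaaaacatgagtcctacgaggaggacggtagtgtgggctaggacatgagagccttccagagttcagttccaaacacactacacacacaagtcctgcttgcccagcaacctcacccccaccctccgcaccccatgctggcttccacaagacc
The Clic4 site lay outside annotated genes, 6525 bp from the nearest annotated gene start, that of Gm12984. It was named after Clic4, which encodes a chloride channel family protein. Clic4 had the nearest start, 28010 bp away, of a gene with a mean of at least 1 TPM in DMSO. The window of this site held TTTATA and ATTGG on the plus strand, the reverse complements of the TATA and CCAAT boxes. The Gar1, Mia3 and Spats2 sites lay 320, 59 and 352 bp downstream of the starts of those genes. GC boxes stood in the Gar1 and Mia3 windows and none of the searched motifs in the Spats2 window. The Ssr2 site, 2586 bp upstream of the gene start, held a TATA box and a nuclear receptor motif, and the Sox2 site, in an intron of an overlapping transcript and 3538 bp from the Sox2 start, held a TATA box.

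At the Clic4 site RNAPII reached a fold enrichment of 26.5 and 26.2 in the DMSO libraries. MED23 stood at 28.3 and 29.0 there in DMSO and had no peak in either dTAG-13 library, while H3K27Ac peaks remained in all 3 dTAG-13 libraries (5.55, 7.50 and 2.95, against 7.08, 12.7 and 9.77 in DMSO). RNAPII at the Gar1 site was 25.8- and 29.0-fold enriched in DMSO, with MED23 at 12.8 and 11.7 and no MED23 peak after dTAG-13. The Ssr2 site carried far more MED23 (143.2 and 119.2) than RNAPII (13.9 and 12.4) in DMSO, and neither had a peak after dTAG-13. The Sox2 and Mir290a sites kept MED23 peaks at lower enrichment: 35.7 and 35.9 in DMSO against 13.1 and 15.4 after dTAG-13 at Sox2, and 70.6 and 67.5 against 15.7 and 15.6 at Mir290a. RNAPII was 8.24- and 7.33-fold enriched at the Sox2 site and 9.58- and 8.80-fold at the Mir290a site in DMSO. MED23 peaks were thus absent after dTAG-13 at the Clic4, Gar1 and Ssr2 sites and present at the Sox2 and Mir290a sites.

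The share of lost sites varied with the height of the DMSO peak, which also chose the members, so these values are a description with no test. Lost sites had a median fold enrichment of 7.34 in replicate 1 (range 5.52 to 26.5) and 7.21 in replicate 2, and kept sites of 11.7 (range to 254.6) and 11.3. Of sites under 6-fold, 69.6% were lost, and the share fell in each higher class, to 39.1% between 8- and 10-fold, 16.0% between 12- and 15-fold and 2.05% (21 of 1026 sites) at 20-fold or more. Lost peaks were also narrower, with a median width of 508 bp against 907 bp. The weakest site inside the limit had a fold enrichment of 5.518 and the first outside 5.517 in replicate 1, where 67 of 92 peaks tied at the limit were inside, and in replicate 2 the values were 5.297 and 5.296. Below the limit, 8886 of 9853 replicate 1 peaks (90.2%) overlapped no dTAG-13 peak.

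**Figure D1:**
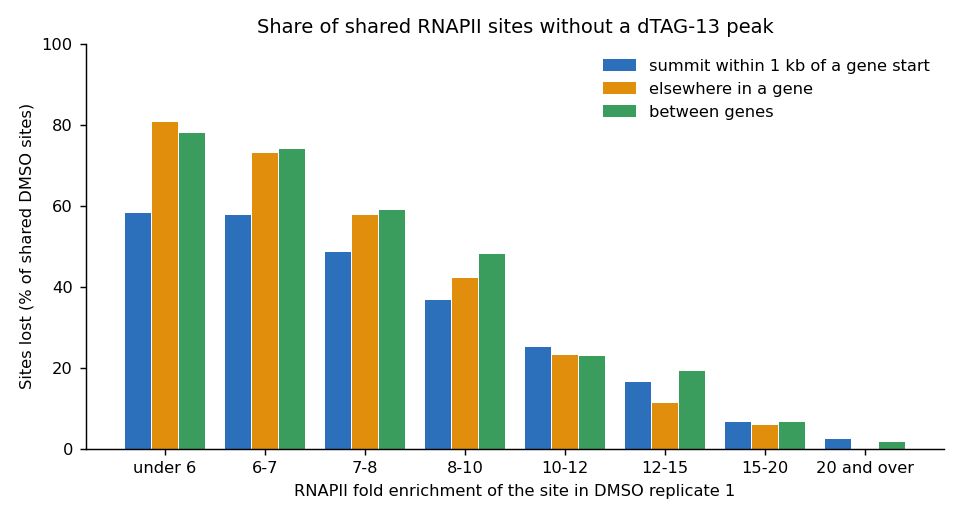
Share of shared DMSO RNAPII sites without a dTAG-13 peak (y axis, %) in 8 classes of fold enrichment in DMSO replicate 1 (x axis), for summits within 1 kb of a gene start, elsewhere in a gene and between genes. The share fell from 58.2% to 2.32% near gene starts and from 80.8% to 0 (of 105 sites) elsewhere in genes as the DMSO peak grew.

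The number of lost sites depended on how many peaks each library supplied. With the 7689 highest peaks of every library, 1840 of 6809 shared DMSO sites (27.02%) lacked a dTAG-13 peak, and 1738 of those 1840 were among the 3026 lost sites. In the opposite direction, 741 of 6211 sites shared by the dTAG-13 libraries (11.9%) had no DMSO peak among the same number. With all peaks, only 83 of the 6489 dTAG-13 sites shared by both libraries lacked a DMSO peak. Most lost sites had no RNAPII peak nearby after dTAG-13: the nearest dTAG-13 summit was a median of 47820.5 bp away and within 1 kb for 171 sites. On the autosomes 27.1% to 39.1% of shared sites were lost and on the X chromosome 44.1% of 331.

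Lost sites were found at gene starts less often than kept sites. A summit within 1 kb of an annotated gene start was counted for 1738 lost sites (57.4%, Wilson 95% interval 55.7 to 59.2%) and for 75.2% of kept sites (74.0 to 76.3%), where the intervals cover counting error only. A further 759 lost sites (25.1%) lay elsewhere in a gene and 529 (17.5%) between genes, against 15.3% and 9.54% of kept sites. The median distance to a gene start was 372.5 bp for lost and 159.5 bp for kept sites, and 21.3% and 10.4% lay beyond 10 kb. Near gene starts the placement was alike, with 79.1% of lost and 79.9% of kept summits downstream and medians of 79 and 78 bp downstream. By the annotation 50.4% of lost summits fell in exons, 23.8% in introns and 25.8% outside genes (kept, 65.3%, 16.0% and 18.8%).

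**Figure D2:**
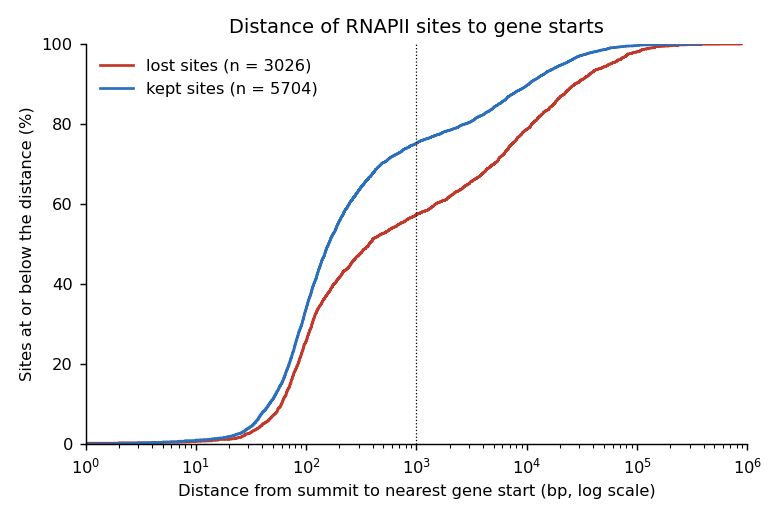
Cumulative share of sites (y axis, %) by distance of the RNAPII summit to the nearest annotated gene start (x axis, bp, log scale) for 3026 lost and 5704 kept sites, with a dotted line at 1 kb. The curve of kept sites lies above that of lost sites, and at 1 kb they stand at kept and lost shares of 75.2% and 57.4%.

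The difference between these positions varied with peak height. Among sites under 6-fold, 58.2% near gene starts were lost, 80.8% elsewhere in genes and 78.0% between genes, while between 10- and 12-fold the shares were 25.0%, 23.2% and 22.9%. The start of the 1698 genes next to a lost site was mostly that of an expressed protein-coding gene: 90.7% had at least 1 TPM in DMSO and 89.8% were protein-coding. Their median level was 22.0 TPM, against 37.9 TPM for genes with a kept site at the start. Of full-length retroviral copies, MMETn elements overlapped 24 of 3026 lost and 53 of 5704 kept sites, and MMERVK elements 1 lost and 9 kept. Within 10 kb of an MMETn element lay 1.02% of lost and 1.28% of kept sites (1.19% of all shared sites). For MMERVK elements the shares were 0.364% and 0.701% (0.584% of all). IAP elements, another retroviral family of the study, were not counted.

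The base composition of lost sites near gene starts was that of CpG-rich promoters. Their 200-base windows had a median GC content of 68%, against 66% at kept sites near starts, and a median of 19 CpG in both. The TATA box (TATAAA, searched like all motifs on both strands) was in 1.84% of lost and 5.01% of kept windows near starts, and in 5.81% of all 8730 windows. The GC box (GGGCGG) was in 52.7% and 50.8% of lost and kept windows near starts (43.8% of all), and the ETS motif (CCGGAA) in 21.7% and 21.5% (19.5% of all). Away from gene starts, windows held the ETS motif at 18.7% of lost and 11.1% of kept sites, and the GC box at 31.0% and 23.4%. The octamer motif (ATGCAAA, 1.66% of all windows), the nuclear receptor motif (AAGGTCA, 1.48%), the E-box (CACGTG, 5.81%) and the CCAAT box (CCAAT, 15.4%) were in 1.49%, 1.22%, 5.62% and 15.3% of lost windows. None of these motifs contains another, and a match does not show that a factor binds there.

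Super-enhancers held a small number of the lost sites. Of the 231 super-enhancers the study lists for these cells, 87 held a shared DMSO RNAPII site, with 33 holding lost sites only, 13 lost and kept sites and 41 kept sites only. They contained 56 lost sites (1.85% of lost) and 66 kept sites (1.16% of kept), so 45.9% of the 122 sites in super-enhancers were lost (Wilson 95% interval 37.3 to 54.7%) against 34.7% of all shared sites. The interval covers counting error only, and several sites can share a super-enhancer. Sites were not matched for peak height, and the difference was not tested. Split by position, the shares in super-enhancers were 31.7% near gene starts (13 of 41), 51.2% elsewhere in genes (21 of 41) and 55.0% between genes (22 of 40), beside 28.8%, 46.5% and 49.3% over all shared sites. The lost sites in super-enhancers included those beside Ssr2, Sox2, Fgf4, Mir290a, Lefty1, Tdgf1, Spry2 and Spry4.

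Mediator and histone marks came from libraries that took no part in choosing the sites. The 10000 highest MED23 peaks covered 25.0% and 25.6% of lost sites in the DMSO libraries and 11.7% and 10.9% in the dTAG-13 libraries. Both dTAG-13 values were below both DMSO values, a difference of −14.0 points (25.3 ± 0.467 against 11.3 ± 0.514, SD, n = 2 and 2, exact permutation test, two-sided p = 0.33, the smallest p this design allows). At kept sites the share went from 50.9% in both DMSO libraries to 30.2% and 28.6%. The lost minus kept difference was −25.6 points in DMSO and −18.1 after dTAG-13 (exact permutation p = 0.33), but over all deposited MED23 peaks it was −8.78 and −33.4, so its direction of change turned with the number of peaks used. All deposited MED23 peaks covered 88.4% of lost sites in DMSO and 19.8% after dTAG-13, in libraries of 63045 and 58925 against 15335 and 14551 peaks.

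Within the lost sites, those near gene starts and those elsewhere were covered by the 10000 highest MED23 peaks to a similar share in DMSO. Near starts the share went from 25.7% and 26.2% to 8.11% and 7.77%, and elsewhere from 23.9% and 24.8% to 16.5% and 15.2%. The decrease was larger near starts with either number of peaks, but the similar shares in DMSO were not seen over all deposited peaks. Over all deposited peaks the mean share near starts was 98.4% in DMSO against 18.9% with dTAG-13, and elsewhere 74.9% against 21.0%. In super-enhancers 76.8% and 78.6% of the 56 lost sites had one of the 10000 highest MED23 peaks in DMSO and 60.7% and 58.9% after dTAG-13. Counting instead a MED23 peak whose midpoint lay within 1 kb of the summit, the mean share in super-enhancers was 59.8% and 61.6%, so this decrease was not seen with that rule. These 2 against 2 comparisons cannot reach a p under 0.33.

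H3K27Ac at lost sites differed widely between the dTAG-13 libraries. The 10000 highest H3K27Ac peaks covered 44.4%, 42.4% and 41.6% of lost sites in DMSO and 25.0%, 44.5% and 14.2% in dTAG-13 replicates 1, 2 and 3. The groups overlapped (42.8 ± 1.48 against 27.9 ± 15.4, SD, n = 3 and 3, exact permutation two-sided p = 0.4). dTAG-13 replicate 2, the highest, had 117348 peaks, against 30259 and 45662 in replicates 1 and 3 and 88050 to 117475 in DMSO. Kept sites moved in the same libraries, with means of 71.8% and 55.8%, and the lost minus kept difference changed by 1.04 points (exact permutation p = 0.4). Over all deposited H3K27Ac peaks that difference changed by −12.4 points (exact permutation p = 0.3) and with the top 20000 by −6.25 points (exact permutation p = 0.2), so its direction turned with the number of peaks used. In the 56 lost sites of super-enhancers the share was 76.8%, 83.9% and 75.0% in the DMSO libraries, against 51.8%, 62.5% and 41.1% with dTAG-13, without overlap (exact permutation p = 0.1, the smallest possible for 3 against 3). Over all deposited H3K27Ac peaks the means in super-enhancers were 95.8% and 82.7% and the groups overlapped (exact permutation p = 0.2). At lost sites away from gene starts the 10000 highest peaks covered 43.9%, 42.9% and 42.0% in DMSO. With dTAG-13 they covered 26.6%, 38.8% and 18.2%, also without overlap (exact permutation p = 0.1). Kept sites away from gene starts went from 59.6%, 58.9% and 58.9% to 48.5%, 58.5% and 41.2%, also without overlap. Over all deposited peaks the groups overlapped at lost sites away from starts (exact permutation p = 0.4). Kept sites in super-enhancers were not counted. For H3K9me3, the mark of TRIM28 heterochromatin, the 10000 highest peaks covered about 1% of lost sites or less: 0.793%, 1.06% and 1.02% in the DMSO libraries, against 0.264%, 0.661% and 0.264% with dTAG-13 (exact permutation p = 0.1). All deposited H3K9me3 peaks covered 7.87%, 6.94% and 6.64% of lost sites in DMSO, against 0.430%, 4.49% and 1.09% with dTAG-13 (exact permutation p = 0.1). dTAG-13 replicate 1 had 11474 of these peaks, against 104579 to 147611 in the other libraries. At lost sites away from gene starts all deposited peaks covered 17.4%, 15.6% and 14.8% in DMSO, against 1.01%, 9.94% and 2.48% with dTAG-13. H3K9me3 coverage of kept sites was also lower with dTAG-13. Over all deposited peaks their mean went from 3.28% to 1.07% (exact permutation p = 0.1). With the 10000 highest it went from 0.660% to 0.339% (exact permutation p = 0.1). The lost minus kept difference over all deposited peaks was 3.86 points in DMSO and 0.935 with dTAG-13 (exact permutation p = 0.1). With the top 20000 it was 1.15 and 0.169 (exact permutation p = 0.1), and with the 10000 highest 0.298 and 0.0576 (exact permutation p = 0.2). Counting peak midpoints within 1 kb of the summit, it was 0.201 and 0.448 (exact permutation p = 0.3), so its direction turned with the overlap rule.

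**Figure D3:**
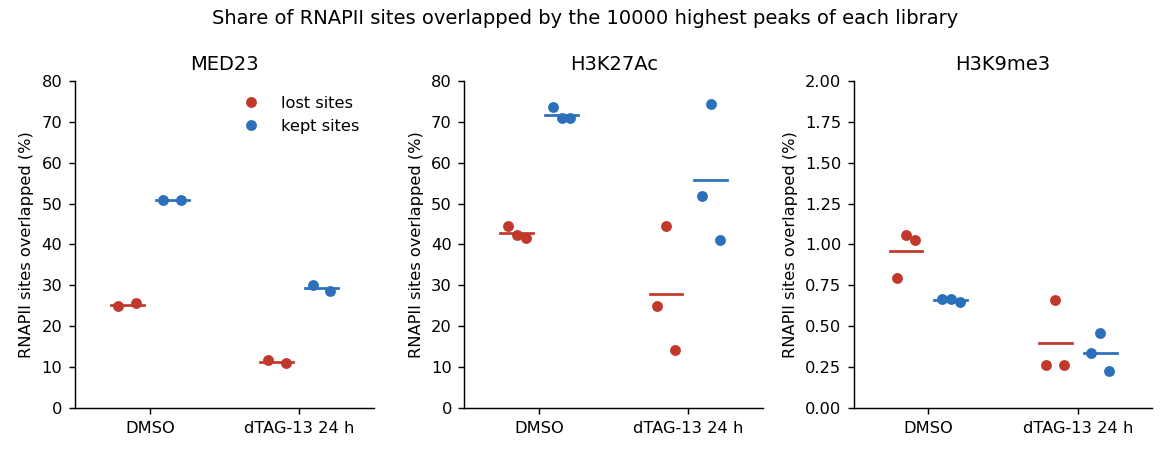
Share of lost and kept RNAPII sites (y axis, %) overlapped by the 10000 highest peaks of each MED23, H3K27Ac and H3K9me3 library, for DMSO and 24 h dTAG-13; points are libraries, bars are means, and the H3K9me3 axis ends at 2%. MED23 points do not overlap between treatments, with lost sites at 25.0% and 25.6% for DMSO, against 11.7% and 10.9% for dTAG-13, while H3K27Ac in dTAG-13 replicate 2 stays at the DMSO level at lost sites.

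The genes of lost sites were then examined. Each lost site was assigned to the nearest start, within 50 kb, of a gene with a mean of at least 1 TPM in DMSO, which gave 2348 genes. Genes assigned in this way to kept sites and to no lost site (4225) were called genes of kept sites only. A gene with any start-proximal lost site and no kept site within 1 kb of its start was called a start-lost gene (1632 genes, of any level), and one with a kept site there a start-kept gene (4224), with 66 genes holding both kinds. Changes were tested with limma over all genes on log2 of the value plus 0.5, which understates the change of low genes, and a gene was called changed at a Benjamini-Hochberg adjusted p below 0.05 and more than 2-fold. Less RNA per cell and fewer cells of a kind cannot be told apart in these bulk samples.

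As a group, the genes of lost sites had the same median change in nascent RNA as all genes. At 24 h, 24 of 1907 tested genes of lost sites rose and 10 fell in TT-SLAM-seq, beside 2.49% higher and 0.906% lower (3.4% changed) among all 13357 genes tested. Their median log2 change was 0.21, the same as that of all genes, and the quartiles were −0.01 and 0.42. All genes tested can include genes under 1 TPM in DMSO, which the 50 kb assignment left out. Among 3732 tested genes of kept sites only, 35 rose (0.938%) and 8 fell (0.214%), with a median of 0.18. The shares for genes of lost sites were 1.26% and 0.524%, and the difference was not tested. Of 1258 tested start-lost genes, 9 rose and 3 fell, with a median of 0.21, and 23.8% had a change below 0. For 3775 start-kept genes, 41 rose and 14 fell, with a median of 0.18 and 28.6% below 0. After centring each library on its median the calls among genes of lost sites became 5 higher and 21 lower (141 higher and 241 lower among all genes), so the balance of rises and falls depends on the scaling.

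The medians were close across peak heights. Start-lost genes with a site of 10-fold or more had a median TT-SLAM-seq change of 0.21 (312 genes), and those under 6-fold a median of 0.22 (113 genes). In polyadenylated RNA the medians were 0.11 and 0.17. Genes reached only by a distal lost site, with no site at their own start, had a median TT-SLAM-seq change of 0.17, with 8 higher and 4 lower of 342. Those with a distal lost site and a kept site at the start had 0.16, with 7 higher and 5 lower of 299.

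Polyadenylated RNA at 24 h changed in more genes, and mostly upward. Among 2347 tested genes of lost sites 140 rose and 46 fell (background 10.1% higher and 2.01% lower, 12.2% changed, of 17922 genes), with a median log2 change of 0.10 against 0.13 for all genes. Genes of kept sites only had 202 higher (4.78%) and 44 lower (1.04%) of 4224 and a median of 0.01. For genes of lost sites the shares were 5.97% and 1.96%, and the difference was not tested. Start-lost genes had 94 higher and 25 lower of 1514 and a median of 0.15, and start-kept genes 208 and 44 of 3967 and a median of 0.01. After centring, the genes of lost sites had 62 higher and 134 lower (886 and 919 among all genes). In the shERV line dTAG-13 gave 22 higher and 35 lower of 2299 (background 2.38% and 1.44%, 3.82% changed), with a median of 0.14 as for all genes. Centring turned this to 11 higher and 53 lower (246 and 353 among all genes). Before centring, genes of kept sites only had 23 higher (0.552%) and 18 lower (0.432%) of 4163 in this line. The shares for genes of lost sites were 0.957% and 1.52%, and the difference was not tested.

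**Figure D4:**
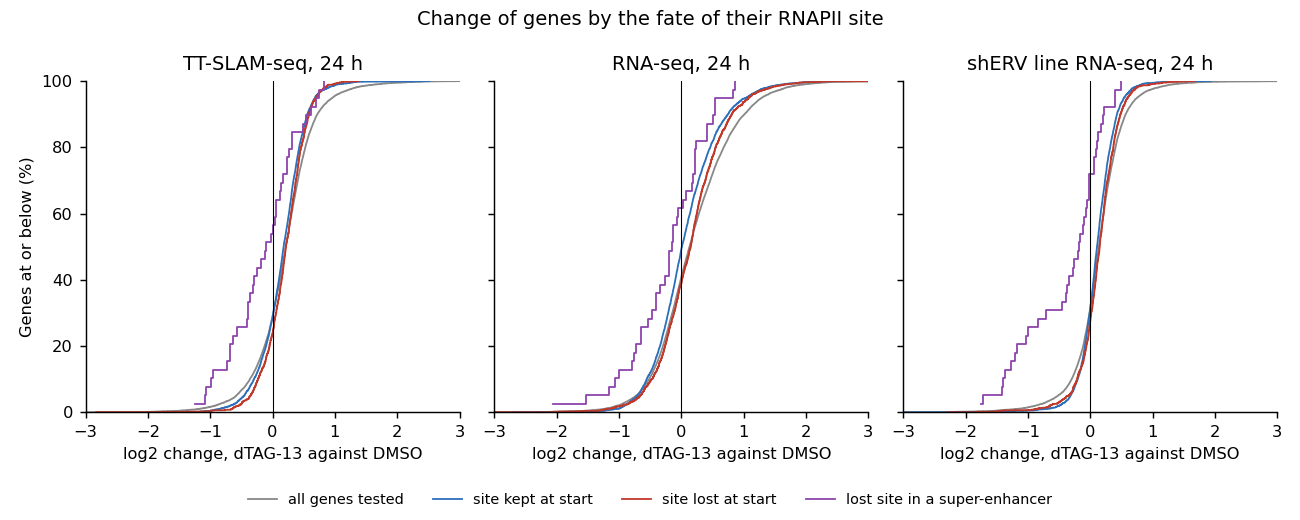
Cumulative share of genes (y axis, %) by log2 change at 24 h of dTAG-13 against DMSO (x axis) in TT-SLAM-seq, RNA-seq and RNA-seq of the shERV line, for all genes tested, start-kept genes, start-lost genes and the 39 genes of lost sites in super-enhancers. Start-lost genes lie on the curve of all genes near 0, with medians of 0.21, 0.15 and 0.15, and the super-enhancer genes lie to the left over most of the range, with medians of −0.11, −0.14 and −0.19.

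Earlier times showed few calls among these genes. In TT-SLAM-seq 3 were higher and 0 lower at 2 h by limma, where 487 had an unadjusted p under 0.05 (background 0.127% and 0.0973%, 0.225% changed), and 3 and 1 at 6 h (0.374% and 0.195%, 0.569% changed). In RNA-seq 2 were higher and 3 lower at 2 h (0.251% and 0.123%, 0.374% changed), and 5 and 2 at 6 h (0.776% and 0.19%, 0.965% changed). At 96 h, later than the 24 h of the RNAPII maps, 387 rose and 309 fell (20.3% and 12.4%, 32.7% changed), and after centring 259 rose and 462 fell. These time points share the DMSO libraries, which are labelled 0 h.

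Genes next to the highest lost sites near a start changed by less than 2-fold in nascent RNA. Gar1 encodes a protein of the H/ACA small nucleolar ribonucleoprotein, which guides pseudouridylation of RNA. Its TT-SLAM-seq level was 3.11, 2.59 and 3.08 length- and depth-scaled fragments (FPKM) in DMSO and 2.54, 2.45 and 2.50 FPKM at 24 h. All values at 24 h were below the DMSO values, and the change of −0.19 ± 0.159 (log2, SE) did not pass (limma, adjusted p = 0.379). Its polyadenylated RNA went from 115.1, 118.2 and 112.8 TPM to 77.4, 83.4 and 85.3 TPM. This difference of −0.49 ± 0.0401 in log2 passed the test but was under 2-fold (limma, adjusted p = 1.02e-07).

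Spats2 had more nascent RNA at 24 h, with the RNAPII peak at its start (24.1- and 23.6-fold enriched in DMSO) lost. TT-SLAM-seq gave 1.30, 1.30 and 1.16 FPKM in DMSO and 2.42, 2.50 and 2.46 FPKM at 24 h. The groups did not overlap, and the log2 change was 0.76 ± 0.0760 (limma, adjusted p = 0.000103), under 2-fold on this scale. Spats2 RNA was also higher, going from 72.1, 74.0 and 72.6 TPM to 95.9, 95.9 and 93.5 TPM. Mia3, which exports collagen from the endoplasmic reticulum, had no TT-SLAM-seq value, and its RNA was 75.5, 70.4 and 71.4 TPM in DMSO and 85.4, 72.6 and 76.4 TPM at 24 h, with overlapping groups.

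The other 9 genes of the 12 highest lost sites at a start were Clptm1l, Hist1h2al, Exog, Nup210, Aggf1, Smim8, Atp6ap2, Oat and Trim45. None of the 12 was called changed in TT-SLAM-seq or RNA-seq at 24 h, where Mia3 and Hist1h2al had no TT-SLAM-seq test. In TT-SLAM-seq the log2 changes of the 8 others with a test ran from −0.24 (Clptm1l) to 0.39 (Atp6ap2, a subunit of the proton pump that acidifies endosomes), with Oat at 0.34 and Trim45 at 0.36. In RNA-seq they ran from −0.43 (Aggf1) to 0.87 (Trim45). The direction of Aggf1 and Smim8 in TT-SLAM-seq turned with centring, from 0.08 to −0.16 and from 0.14 to −0.10. Hist1h2al is annotated as a processed pseudogene of a family of near-identical histone genes, so its reads are uncertain.

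Among genes of lost sites, the largest rises in nascent RNA at 24 h were those of Egr1, Irf1, Bnip3, Hip1r, Jund and Maged1. Irf1, an interferon-response transcription factor 35249 bp from its lost site, rose from 1.89, 2.402 and 2.59 FPKM to 7.27, 9.60 and 8.41 FPKM (limma, log2 difference 1.68 ± 0.160, adjusted p = 8.24e-05). Hip1r, an endocytic adaptor, lost the RNAPII peak 140 bp from its start and rose from 0.301 ± 0.0295 FPKM (SD, n = 3) to 1.57, 1.72 and 1.52 FPKM. Its RNA rose from 9.28, 9.43 and 10.9 TPM to 38.3, 40.6 and 40.8 TPM. The groups of Hip1r were far apart in both assays, and in the shERV line it rose too (log2 change 1.10). With a pseudocount of 1 Hip1r had a log2 change of 1.00 in TT-SLAM-seq and just missed the 2-fold limit. The same setting put Maged1 at 0.99 (1.00 after centring), and among the genes that fell Fgf4 at −0.94, Srm at −0.99 and Gm30085 at −0.90, so none of these was called changed by at least 2-fold in nascent RNA with it. Egr1 and Jund are immediate early genes, and their nascent and polyadenylated RNA moved differently. Egr1 gave 16.5, 10.3 and 4.96 FPKM in DMSO and 26.7, 36.1 and 43.1 FPKM at 24 h, while its RNA fell from 18.0, 17.1 and 17.3 TPM to 9.17, 7.80 and 8.43 TPM.

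The largest falls in nascent RNA were those of Gm46332, Mir363, Gm30085, Mir290a, Mt1 and Srm. Gm46332 and Gm30085 are annotated as lincRNAs, and Mir363 and Mir290a as miRNAs, whose reads in these libraries reflect the primary transcript and not the mature miRNA. Gm46332 fell from 1.69, 1.17 and 1.02 FPKM to 0.0825, 0.0889 and 0.118 FPKM, and its RNA from 113.9, 107.4 and 116.2 TPM to 8.57, 14.1 and 15.9 TPM. Srm, the spermidine synthase gene, lost the RNAPII peak 75 bp from its start, and its nascent RNA fell from 4.83, 3.59 and 3.64 FPKM to 1.41, 1.69 and 1.46 FPKM (log2 change −1.16 ± 0.185, limma, adjusted p = 0.00104). Its RNA fell from 327.7, 343.9 and 335.9 TPM to 145.4, 132.7 and 144.1 TPM, with no overlap in either assay. The fall of Mt1 (adjusted p = 0.0413) did not pass under 9 of the alternatives tried, the fit without DMSO replicate 1 (log2 change −0.82) among them.

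In RNA-seq at 24 h the largest rises among genes of lost sites were those of 2900052L18Rik, Slc15a2, Gm4425, 9330151L19Rik, Fgfbp3 and Eno2, with log2 changes of 2.07 to 2.38. Gm4425 and 9330151L19Rik, both noncoding, rose, with the RNAPII peaks 62 and 54 bp from their starts lost: 9330151L19Rik went from 1.46, 1.33 and 1.82 TPM to 7.55, 9.72 and 8.30 TPM. Its nascent RNA stayed within the DMSO range of 0.866 to 1.68 FPKM at 24 h (1.35, 1.16 and 0.987 FPKM). The largest falls were those of Chac1, Gm46332, Gm30085, Spry4, Etv4 and Zfp819. Spry4, an inhibitor of receptor tyrosine kinase signalling, and Etv4, an ETS transcription factor, both lost the peak at their start (35 and 199 bp). Etv4 RNA fell from 126.5, 119.8 and 124.2 TPM to 25.4, 35.9 and 33.5 TPM. Its nascent RNA was 1.05, 0.950 and 1.06 FPKM in DMSO and 0.298, 0.287 and 0.217 FPKM at 24 h. The log2 change of −0.99 was just under 2-fold only on the scale with 0.5 added, which understates the change of such low values. Chac1, a glutathione-degrading enzyme of the amino acid response, fell in RNA from 27.9, 31.1 and 23.6 TPM to 2.01, 2.95 and 2.61 TPM, and was already at 1.42, 1.49 and 1.81 TPM at 2 h, whereas its nascent RNA was 0.522, 0.403 and 0.306 FPKM in DMSO and 1.18, 0.850 and 0.685 FPKM at 24 h.

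Genes of lost sites in super-enhancers had a lower median change at 24 h than all genes. In TT-SLAM-seq at 24 h 0 of 39 rose and 3 fell by limma (Mir290a, Fgf4 and Ssr2), with 24 at an unadjusted p under 0.05. Over all genes tested 2.49% rose and 0.906% fell. The median log2 change of the 39 was −0.11, beside 0.21 over all genes. The 33 tested genes of kept sites in super-enhancers had 0 higher and 1 lower and a median of 0.14. The difference between those lists was not tested. In RNA-seq 4 fell (Mir290a, C330002G04Rik, Spry2 and Spry4) and 0 rose, beside 2.01% lower and 10.1% higher over all genes. Their median was −0.14, and genes of kept super-enhancer sites had the same median. In the shERV line 9 fell and 0 rose with a median of −0.19, beside 1.44% lower and 2.38% higher over all genes. Of 36 tested genes of kept super-enhancer sites 4 fell and 0 rose with a median of −0.04. At 96 h 21 fell and 2 rose (Nfkbia and Tmem51), with a median of −1.14, beside 12.4% lower and 20.3% higher over all genes. Of the 37 genes of kept super-enhancer sites 13 fell and 5 rose at 96 h, with a median of −0.49, and the difference between the lists was not tested there either. The genes of lost sites include embryonic stem cell markers, whose list had a summed level of 413 to 487 TPM at 96 h. Feeder fibroblast markers were at 425 to 448 TPM at 96 h (41.7 to 43.2 TPM in DMSO), endoderm markers at 78.0 to 82.6 TPM (13.9 to 18.1 TPM) and neural markers at 66.5 to 73.8 TPM (60.7 to 62.6 TPM), and their part in these changes was not tested.

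Mir290a heads the most abundant miRNA cluster of mESCs. The lost site lay 6507 bp upstream, and a kept site lay at its start. Its primary transcript gave 204.0, 191.6 and 117.6 FPKM in TT-SLAM-seq in DMSO, 221.5, 243.9 and 227.5 FPKM at 2 h, 179.9, 179.6 and 167.6 FPKM at 6 h and 69.9, 63.0 and 79.0 FPKM at 24 h. Thus only the 24 h libraries lay below all DMSO libraries (log2 change −1.24 ± 0.194, limma, adjusted p = 0.000933). Fgf4, a growth factor that drives exit from pluripotency, had 2 lost sites 10102 and 14052 bp downstream of its start, inside a super-enhancer. Its nascent RNA was 4.63, 3.97 and 3.60 FPKM in DMSO, 5.19, 5.65 and 5.33 FPKM at 2 h, 2.25, 2.97 and 2.96 FPKM at 6 h and 1.63, 1.59 and 1.69 FPKM at 24 h. Fgf4 lay below all DMSO libraries at 6 h and 24 h. Ssr2, a subunit of the translocon-associated complex of the endoplasmic reticulum, fell from 4.77, 3.72 and 3.49 FPKM to 1.52, 1.57 and 1.80 FPKM at 24 h. Its RNA went from 396.2, 415.8 and 404.5 TPM to 209.6, 195.1 and 205.2 TPM, but in the shERV line the groups overlapped (235.4, 268.6 and 260.6 TPM with DMSO, against 242.4, 225.7 and 240.0 TPM with dTAG-13).

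**Figure D5:**
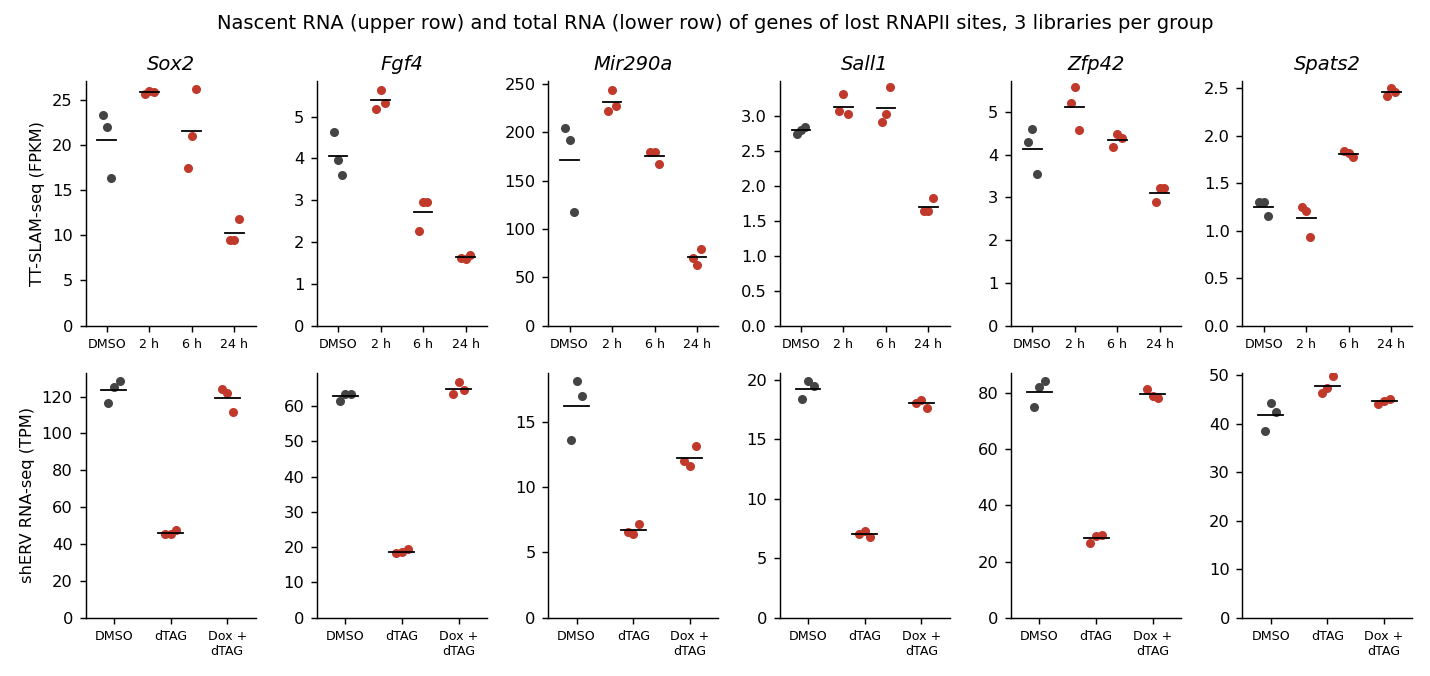
TT-SLAM-seq level (upper row, FPKM) at 0, 2, 6 and 24 h of dTAG-13 and RNA level in the shERV line (lower row, TPM) for 6 genes of lost RNAPII sites; points are libraries, bars are means, and axes start at 0. Sox2, Fgf4, Mir290a, Sall1 and Zfp42 are lowest at 24 h and, in the shERV line, in the dTAG-13 libraries without the knockdown, whereas nascent RNA of Spats2 is highest at 24 h.

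In the pluripotency list, 8 of 20 genes were the gene of a lost site: Pou5f1, Sox2, Klf2, Zfp42, Tbx3, Sall1, Fgf4 and Tdgf1. Among all 17922 genes tested in RNA-seq, 2347 were genes of lost sites. Of the 8, 2 lost the site at their start, Pou5f1 and Zfp42, while Sox2, Klf2 and Tdgf1 kept a site there. In TT-SLAM-seq at 24 h 1 of the 8 fell (Fgf4), in RNA-seq 3 (Pou5f1, Zfp42 and Sall1), in the shERV line 5 (Sox2, Zfp42, Tbx3, Sall1 and Fgf4) and at 96 h 7, and none rose in these comparisons. The shares that fell among all genes tested were, in that order, 0.906%, 2.01%, 1.44% and 12.4%. Over all 20 genes 3 of 19 tested fell in TT-SLAM-seq, 6 in RNA-seq at 24 h and 11 in the shERV line. Sox2, a core pluripotency factor, gave 23.3, 21.9 and 16.4 FPKM of nascent RNA in DMSO and 9.42, 9.50 and 11.8 FPKM at 24 h, without overlap. The log2 change of −0.96 ± 0.174 (limma, adjusted p = 0.00204) is just short of 2-fold on the scale with 0.5 added and passed it after centring (−1.20). Pou5f1, which encodes OCT4 and has related pseudogenes, had overlapping nascent levels (4.27, 4.51 and 5.98 FPKM in DMSO and 4.06, 4.58 and 4.67 FPKM at 24 h), while its RNA fell from 1163, 1181 and 1141 TPM to 564.4, 508.4 and 537.1 TPM. Klf2 had nascent levels of 17.3, 14.6 and 12.0 FPKM in DMSO and 16.6, 20.9 and 21.2 FPKM at 24 h, which overlapped.

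The shERV line allowed a comparison with repression of the retroviral repeats. Dox with dTAG-13 against dTAG-13 alone gave 38 higher and 13 lower of 2299 genes of lost sites (background 1.49% and 1.96%, 3.45% changed; 45 higher and 8 lower after centring), and 9 higher and 0 lower of the 39 genes of lost sites in super-enhancers, with 28 of 39 at an unadjusted p under 0.05. The median log2 change of those 39 was 0.17. Genes of kept super-enhancer sites had 4 higher and 0 lower of 36 and a median of 0.10, and the difference between the lists was not tested. Among the 8 pluripotency genes 5 rose. Sox2 was at 116.5, 125.2 and 128.6 TPM in DMSO, 45.3, 45.4 and 47.7 TPM with dTAG-13 and 124.1, 121.7 and 111.9 TPM with Dox and dTAG-13. Dox with dTAG-13 thus overlapped DMSO, and dTAG-13 alone lay below both. Fgf4 went from 61.5, 63.5 and 63.6 TPM to 18.2, 18.6 and 19.4 TPM and stood at 63.4, 66.9 and 64.4 TPM with Dox. Both comparisons share the dTAG-13 libraries, so opposite changes in them are not independent. Start-lost genes had 10 higher and 10 lower of 1478 and a median of −0.06. No RNAPII map of this line was used, so whether any lost site returned was not measured.

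Genes of the RNAPII machinery were among those with lost and those with kept sites at their starts. Of 37 genes for RNAPII subunits, initiation, pausing and elongation factors and Mediator, 7 lost the site at their start: Polr2i and Polr2k (subunits of the polymerase), Tbp (TATA-binding protein), Nelfcd and Nelfe (pausing factors) and Med12 and Med14 (Mediator). Another 20 of the 37 kept the site at their start, beside 1632 start-lost and 4224 start-kept genes among all genes. None of the 7, nor Cdk7 and Cdk9, which were genes of other lost sites, was called changed at 24 h in TT-SLAM-seq, RNA-seq or the shERV line, where Med12 had no TT-SLAM-seq test. RNA changes at 24 h ran from −0.77 (Polr2i) to 0.84 (Med12). Of the immediate early list, 4 of 15 were genes of lost sites (Atf3, Egr1, Ier2 and Jund), none at the start, and 2 rose in TT-SLAM-seq. Of the 13 amino acid response genes found, 4 were (Asns, Cebpb, Chac1 and Nupr1), with 0 of 3 tested changed in TT-SLAM-seq by limma and 2 lower in RNA-seq (Chac1 and Nupr1). Among all 17922 genes tested in RNA-seq, 2347 were genes of lost sites. At 24 h 2.49% of all genes tested rose in TT-SLAM-seq and 2.01% fell in RNA-seq. The list of symbols starting with Rpl or Rps had 102 genes, 10 of them genes of lost sites and none changed at 24 h, and the 2 that lost the site at their start (Rps19bp1 and Rps6ka2) are not ribosomal proteins. Of 70 genes with symbols starting with Hist1 to Hist4, only Hist1h2al, annotated as a pseudogene, lost the site at its start, and 34 kept it. No feeder fibroblast, neural or endoderm marker was the gene of a lost site.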

How the data were processed

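Degron mESC data of RNAPII, MED23, H3K27Ac and H3K9me3 ChIP–seq were used with nascent and steady-state RNA libraries. The authors trimmed reads (cutadapt 2.4), aligned them with BWA, handled duplicates with GATK 4.1.4.1 and called peaks per library with MACS2 on mm10. The deposited peak files hold fold enrichment, a ratio over background with no spike-in scaling, which ranked the peaks here. TT-SLAM-seq values were deposited as FPKM, made by the authors with STAR 2.7.5a and SLAM-DUNK, on library totals, estimated here from the deposited FPKM and gene lengths, of 6.47 to 24.2 M reads. RNA-seq values were deposited as TPM from StringTie 2.0.6, with deposited per-gene coverage, a signal that gave relative depths of 0.341 (dTAG-13 24 h replicate 1) to 1.44 in the time course and 0.837 to 1.14 in the shERV line. Peak files give no read depth, so the depth behind a peak is unknown.

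Gene starts, exons and biotypes came from GENCODE vM21 (mm10), which shared 54409 of the 54446 StringTie gene IDs. FPKM and TPM were tested with limma 3.58.1 (R 4.3.3, lmFit and eBayes with a trend) on log2(value + 0.5), for genes with at least 0.5 FPKM or 1 TPM in at least 3 libraries, with all groups of an experiment in 1 fit and Benjamini-Hochberg adjustment over all genes tested. Shares of sites were compared between libraries by a two-sided exact permutation test (SciPy 1.17.1). RNAPII values chose the sites and got no test. Sequences were read with pysam 0.24.0. Scripts were tested on simulated data. Named genes were the 12 genes with a start within 1 kb of the highest lost sites, the 6 largest rises and falls among changed genes of lost sites in TT-SLAM-seq and RNA-seq at 24 h, and pluripotency genes of lost sites; Clic4, Ssr2 and list members are named beside them. Sites, lists and tests were chosen with earlier results of these data known. Other rank limits, distances, overlap rules, pseudocounts, filters, centring, a replicate block and leaving out each library were tried. Hi-C and single-cell files were not used here.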

Additional observations from a re-analysis of the deposited data

Results flagged for a closer look

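For 3 named genes every dTAG-13 library at 24 h lay on opposite sides of the DMSO libraries in the time course and in the shERV line, and the difference between the lines was not tested. The lines also differ in RNA selection (polyadenylated against ribosomal RNA-depleted total RNA) and in the time label of the DMSO samples (0 h against 24 h). Clptm1l, which lost the RNAPII peak at its start, had a log2 change of −0.39 in the time course (47.0, 49.2 and 49.7 TPM in DMSO, 35.5, 36.8 and 38.7 TPM at 24 h) and of 0.19 in the shERV line (36.6, 39.3 and 40.5 TPM, then 43.9, 42.5 and 47.0 TPM). Nup210, a nuclear pore protein that also lost the peak at its start, had 0.48 in the time course (31.5, 31.4 and 35.5 TPM, then 42.4, 48.2 and 47.1 TPM) and −0.19 in the shERV line (17.7, 18.9 and 19.1 TPM, then 16.6, 15.9 and 16.1 TPM). Jund, the gene of 2 distal lost sites, had −0.14 in the time course (139.0, 141.7 and 131.5 TPM, then 130.2, 118.6 and 125.2 TPM) and 0.23 in the shERV line (64.2, 70.0 and 69.8 TPM, then 77.5, 80.3 and 81.0 TPM).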

How the results depend on the processing

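The number of lost sites was 650 with the top 5000 peaks of each DMSO library, 9474 with the top 20000 (all peaks) and 1840 with equal peak numbers in all 4 libraries, an alternative chosen after seeing the data, and 3276 to 3693 without either dTAG-13 library. The share near gene starts was 52.7% within 500 bp, 61.9% within 2 kb, 53.9% for protein-coding starts and 64.5% for any transcript start (also chosen after seeing the data), and over the changed sets of sites 77.5% with the top 5000, 68.3% with equal peak numbers and 45.2% with the top 20000. The change in H3K9me3 coverage (−0.562 points) was −5.14 points over all deposited peaks and −1.60 with the top 20000, turned to 0.0661 points with peak midpoints within 1 kb, and was −0.694 to −0.496 points without single libraries. For the numbers of changed genes of lost sites (34 in TT-SLAM-seq and 186 in RNA-seq at 24 h, 57 in the shERV line, 51 with Dox, 5, 7 and 696 in RNA-seq at 2, 6 and 96 h, 4 in TT-SLAM-seq at 6 h), genes with a start within 1 kb gave 13, 119, 22, 20, 3, 2, 428 and 3. In TT-SLAM-seq at 24 h gene bodies gave 16, a mean of at least 5 gave 7, and pseudocounts of 0.1 and 1 gave 114 and 12, so this count depends on the pseudocount. Pseudocount 1 gave 2 in TT-SLAM-seq at 6 h and 2 in RNA-seq at 2 h, no filter gave 3 in RNA-seq at 2 h, and at 6 h in RNA-seq a mean of at least 5 gave 4 and pseudocount 0.1 gave 11. Leaving out single libraries gave 3 to 5 (lowest without DMSO replicate 2) in RNA-seq at 2 h, 7 to 14 at 6 h (14 without DMSO replicate 3, 13 without dTAG-13 replicate 2, 12 without DMSO replicate 1, 11 without dTAG-13 replicate 1) and 1 to 6 in TT-SLAM-seq at 6 h (1 without DMSO replicate 2, 2 without dTAG-13 replicate 3). Among named genes, TT-SLAM-seq changes reversed for Exog (−0.118 to 0.0496 without single libraries, above 0 without DMSO replicate 1 or dTAG-13 replicate 1 or 2), Pou5f1 (−0.208 to 0.0126, above 0 without DMSO replicate 3), Aggf1 (−0.16) and Smim8 (−0.10) with centring, and RNA-seq of Tbx3 (−0.160 to 0.0229, above 0 without dTAG-13 replicate 3). Without single libraries, changed genes numbered 33 to 43 in TT-SLAM-seq and 181 to 198 in RNA-seq at 24 h, 54 to 60 in the shERV line and 49 to 53 with Dox. The cause was not tested. The replicate block gave 33 in TT-SLAM-seq at 24 h, 2 in place of 3 at 2 h and 695 in RNA-seq at 96 h and left the other counts equal. Same-numbered libraries correlated between −0.205 and 0.177, and not every one best with its own number. All 3 did so in RNA-seq at 6 h and at 96 h, so whether the numbers pair the samples could not be decided.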
